A study of Rattus norvegicus with 20 samples.

Results

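Milk taken from rat dams 24 h after an injection of lipopolysaccharide (LPS) was compared with milk taken 24 h after an injection of saline, by the RNA of the milk's fat layer. The comparison used 9 of the 20 libraries of the series: LPS libraries 1 to 5 and saline libraries 1, 3, 4 and 5 of postnatal day 11 (P11). It covered the 13796 of 16748 genes in the deposited table that stood above the table's lowest value in at least 1 of these 9. The dams were wild-type Sprague-Dawley rats, injected on postnatal day 10 with LPS or with pyrogen-free saline; the labels give no dose. All were under light isoflurane and were given oxytocin before milk was drawn, and 10 other libraries of the series came from milk drawn 2 h after the injection; the last, P11 saline library 2, was used only as an alternative. By the sample titles each P11 library came from a dam of its own, and 3 of the 5 saline and 3 of the 5 LPS dams had also been milked on the day before. The value columns carry no dam number, so an earlier milking could not be tied to a library.

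LPS is an outer membrane component of Gram-negative bacteria and is sensed by Toll-like receptor 4 with its partners Cd14 and Ly96. That receptor signals through MyD88 to NF-kB and cytokine genes, and through a second route to type I interferon, whose receptor activates STAT2 and IRF9 and with them a large set of antiviral genes. Milk fat globules bud from the secretory cell of the mammary gland inside its apical membrane and carry pieces of its cytoplasm, so their RNA reports mainly on that cell, and leukocytes shed into milk can add to it.

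The 9 libraries had the profile of secretory epithelium. The caseins, Wap, Tf and 3 other genes made up the 10 most abundant genes, which held between 27% and 39.3% of the normalised counts. The summed normalised count of luminal epithelium markers was 247603 to 298311 in saline and 240987 to 287798 in LPS, while that of fibroblast and adipocyte markers was 194 to 274 in saline and 157 to 264 in LPS, with Adipoq, Plin1, Dcn, Lum and Pdgfrb at 0 throughout. Depth, estimated from the value of 1 read in each library, was about 22.2 to 49.7 M reads in genes. LPS libraries held 12407 ± 330.3 detected genes and saline libraries 11839 ± 609.8 (mean ± SD, n = 5 and 4, two-sided exact permutation test, adjusted p = 0.349 over 2 library measures). The share of the 10 most abundant genes was 34.5% ± 4.49 and 31.3% ± 4.95 (exact permutation test, adjusted p = 0.349); with saline library 2 the LPS mean lay below the saline mean.

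Saline library 2 was left out because it stood apart from the other P11 libraries. Its correlation with them across genes was 0.871 to 0.930, against 0.976 to 0.985 with the 10 libraries of the day before. The 9 libraries correlated with each other at 0.959 to 0.990 between groups. Milk protein genes held 62.6% of its counts and 22.9% to 38.6% of theirs. The base means of the authors' own P11 table were rebuilt from the deposited columns with a median error of 0.2%, and saline library 2 entered them with a weight of 5.82e-04 where each other library had 1.25 to 1.31.

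No gene passed the test. At an adjusted p of 0.05 (limma, Benjamini-Hochberg over 13796 genes) 0 genes were called, which is 0% of those tested. The smallest adjusted p was 0.208, shared by MGC105649, Icos and P4ha3. At an unadjusted p under 0.05 there were 632 genes lower in LPS (4.58%) and 480 higher (3.48%), and voom on approximate reads also called 0, with 942 of 11307 genes at an unadjusted p under 0.05. In 166 genes (1.2%) every LPS library lay below every saline library, and in 141 (1.02%) every LPS library lay above. Leaving out any 1 saline library, LPS library 4, or LPS library 1 (lower genes) or 3 (higher genes) raised these counts by more than 1.5 times. They then came to 257 to 438 lower and 234 to 362 higher, with 438 and 342 without LPS library 4. Removing a library can only keep or raise such counts, and with fewer libraries random order alone separates more genes. The cause of the unequal rise was not tested. Large differences ran mostly downward: 115 genes were lower in LPS by at least 1 on the log2 scale and 10 higher by at least 1. Of the 115, saline library 3 was the highest saline library in 65 and saline library 5 in 47, and 3 had groups that did not overlap. The first principal component of the 9 libraries (29.1% of the variance) placed saline libraries 5 and 3 at 1 end (scores of 38.1 and 25.9) and LPS library 3 at the other (-30.8); the other 6 libraries scored between -15.7 and 2.60.

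The authors' deposited table, from the same libraries, lists 1085 genes and gives 19 of them an adjusted p under 0.05, or 0.138% of the genes tested here. Of these, 8 were higher in LPS and 11 lower. The lower ones hold the interferon-linked genes Ddx58 and Helz2, the survival genes Birc3 and Cflar, and the stress genes Atf3 and Gadd45b; the higher ones hold Scgb2a2, Oprpn and Oma1. The values of these named genes in each library are given with their gene groups. Sstr3 and Ms4a4c were also among the lower genes, with log2 fold changes of -3.33 and -3.38 (adjusted p = 0.00715 and 0.0321 in the authors' deposited table). They are not described further.

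**Figure D1:**
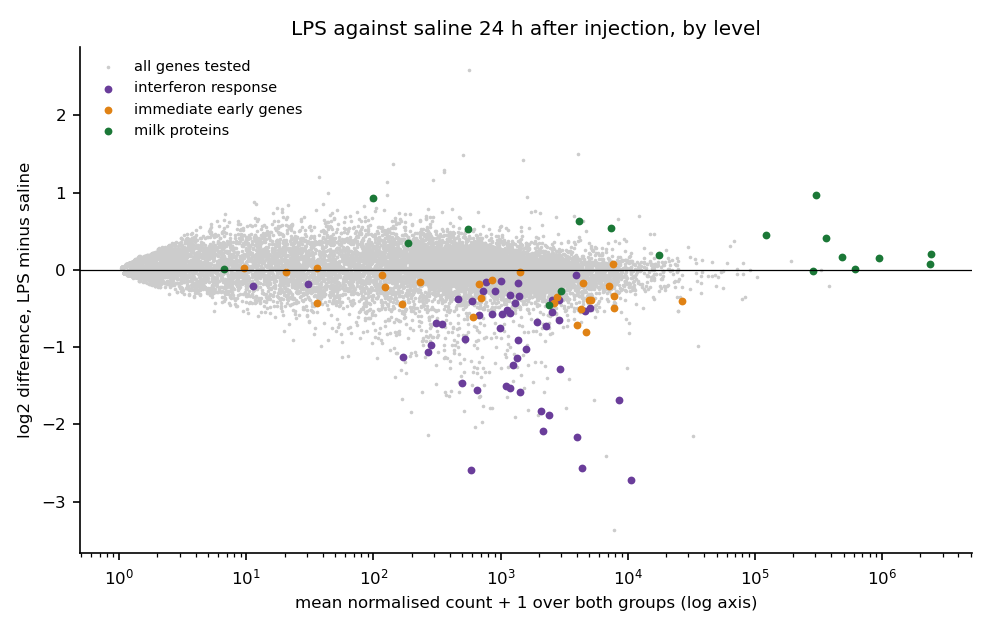
Log2 difference between LPS and saline libraries against the mean normalised count (log axis), with 1 grey point for each of 13796 genes. Interferon response genes, in purple, all lie below 0 and reach -2.72 for Ifit3; immediate early genes, in orange, lie mostly below 0, and milk proteins, in green, lie at the right with small differences.

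Over the 41 lists the largest median difference was in interferon response genes, which were lower in LPS milk. All 51 members above the lowest value had a negative difference, with a median of -0.68 on the log2 scale against 0.01 over all genes tested. None passed the test, 29 had an unadjusted p under 0.05 (4.58% of all genes did, in this direction) and 6 had groups that did not overlap (1.2% of all genes, in this direction). The list's mean log2 value in saline libraries 1, 3, 4 and 5 was 10.1, 11.4, 9.91 and 10.62, and in LPS libraries 1 to 5 it was 10.07, 9.92, 9.63, 9.17 and 9.1. LPS libraries 3, 4 and 5 lay below every saline library, LPS libraries 1 and 2 lay within the saline range, and saline library 3 was the highest of all 9 in 47 of the members. Without saline library 3 the median was -0.40. Without saline libraries 3 and 5 the median was -0.27, with 46 of 51 members negative. In that fit 6 members were lower at an unadjusted p under 0.05 (373 of all 13680 genes tested). With saline library 2 it was -0.56, with 50 of 51 negative.

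**Figure D2:**
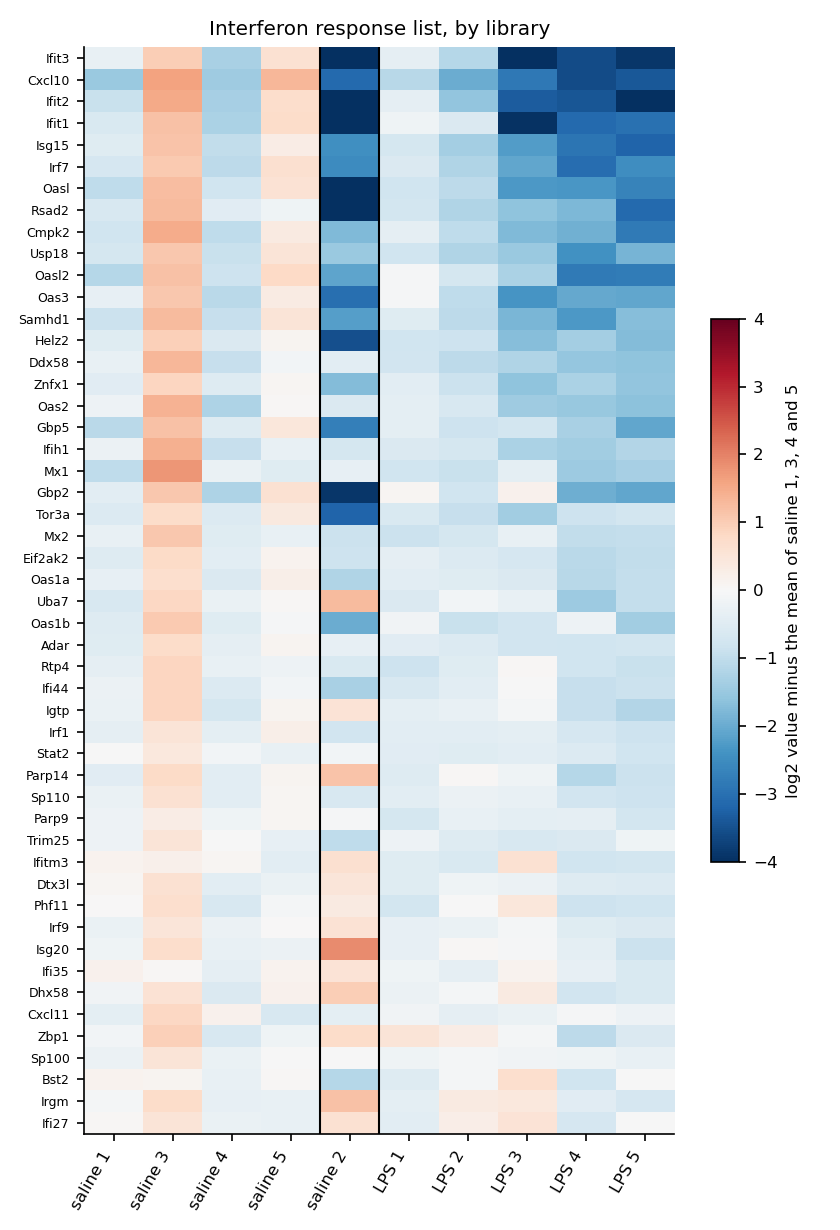
Values of 50 interferon response genes (rows, ordered by difference) in each P11 library (columns), each as the log2 value minus its mean over saline libraries 1, 3, 4 and 5. Saline library 3 is red in nearly every row, LPS libraries 3 to 5 are blue in the upper rows, and the lower rows differ little; saline library 2, between the black lines, was not used.

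Type I interferon acts through a short promoter element, the interferon-stimulated response element, whose core reads GAAA, any 2 bases, GAAA. On either strand it was found in 22 of 39 interferon list members that had a promoter in the RefSeq table (56.4%), against 341 of 11057 promoters of all genes tested (3.08%), over 250 bases before and 50 after each start. Members with the core had a median difference of -0.69 and those without it -0.55. The stretches upstream of the start that hold the core are shown for the 3 members of smallest p that have it, from RefSeq on build GRCr8, 5′ to 3′ on the gene's strand, with the core in capitals; TTTC, 2 bases, TTTC is the same core read on the other strand. They lie at chr6:48788218-48788307, minus strand for Rsad2, chr14:15988816-15988872, plus strand for Cxcl10, and chr1:205800043-205800132, minus strand for Irf7.
Rsad2: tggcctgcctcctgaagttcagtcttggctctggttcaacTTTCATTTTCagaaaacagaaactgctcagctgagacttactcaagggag
Cxcl10: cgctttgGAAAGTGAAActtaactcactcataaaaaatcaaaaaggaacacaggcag
Irf7: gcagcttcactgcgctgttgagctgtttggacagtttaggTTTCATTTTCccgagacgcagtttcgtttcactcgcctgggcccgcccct
A match is a description of these letters and shows no binding.

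Rsad2, which encodes the antiviral enzyme viperin, was 1 of the 6 members whose groups did not overlap. Its normalised counts were 7136, 27158, 8192 and 10074 in saline libraries 1, 3, 4 and 5 and 6781, 4854, 3593, 3159.8 and 1233 in LPS libraries 1 to 5, an order kept below. The highest LPS library lay just under the lowest saline library, and saline library 3 stood far above the rest (log2 difference -1.69 ± 0.47, SE, limma adjusted p = 0.560). Cxcl10, a chemokine that draws T cells, had counts of 185, 2171, 197 and 1768 in saline and 262, 109, 33.8, 5.34 and 10.5 in LPS. Nearly all of the signal lay in saline libraries 3 and 5, saline libraries 1 and 4 lay between the first and the second LPS library, and LPS libraries 4 and 5 were close to 0.

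Among the factors that carry the interferon signal, Irf7, which amplifies interferon production, had counts of 1994, 6726, 1528 and 5105 in saline and 2114, 1346, 701, 318 and 505 in LPS (-1.88 ± 0.53, adjusted p = 0.564). LPS library 1 lay above saline libraries 1 and 4 and the other 4 LPS libraries lay below all saline ones. Stat2, a subunit of the complex that binds the response element, had counts of 2943, 4082, 2752 and 2431 in saline and 2179.9, 2103, 2203, 2016 and 1679 in LPS, groups that did not overlap (-0.54 ± 0.14, adjusted p = 0.553). Its partner Irf9 differed by -0.35 ± 0.16, with groups that overlapped, and the related factor Irf1 by -0.55 ± 0.19. The 8 receptors and kinases upstream had a median of -0.14 (0.02 with saline library 2), and Ifnar1, a chain of the type I receptor, differed by -0.40 ± 0.21 (-0.01 with saline library 2).

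The cytosolic RNA sensors, which start the interferon response to viral RNA, differed by unequal amounts. Ddx58 (RIG-I), with counts of 1245, 4013, 787 and 1439 in saline and 882, 709, 620.5, 477 and 454 in LPS, had a difference of -1.24 ± 0.37 (adjusted p = 0.565), while the authors' deposited table gives it a log2 fold change of -1.55 at an adjusted p of 0.0304. Only LPS library 1 lay above a saline library, and saline library 3 was the highest. Ifih1 (MDA5) differed by -1.02 ± 0.39 and Dhx58 (LGP2) by -0.27 ± 0.26, and both overlapped. Helz2, a helicase induced by interferon, had counts of 2708, 7595, 2537 and 4139.9 in saline and 2194, 2131, 1108, 1448 and 1086 in LPS, with no overlap (-1.29 ± 0.32; log2 fold change -1.39 at an adjusted p of 0.0184 in the authors' deposited table). Without saline libraries 3 and 5 the difference was -0.63 for Ddx58 and -0.75 for Helz2.

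The effector genes held the largest differences. Ifit3, of a family that blocks translation of viral RNA, had counts of 11876, 28961, 5948 and 22246 in saline and 11399.5, 6534, 497, 1155 and 916 in LPS (-2.72 ± 0.83, adjusted p = 0.565). The LPS libraries formed a high pair, 1 and 2, and a low group of 3 that lay below every saline library. Isg15, a ubiquitin-like protein attached to other proteins after interferon, had counts of 2094, 6679, 1460.4 and 3681 in saline and 1791, 1102, 564, 318 and 249 in LPS (-2.08 ± 0.54, adjusted p = 0.553), and Usp18, which removes it, had a similar order of libraries (-1.55 ± 0.43). The 3 Ifit genes ranged from -2.72 to -2.16 and the 6 genes of the Oas family from -1.83, in Oasl, to -0.68. Smaller differences were seen in Mx1, a GTPase that traps viral capsids (-0.97 ± 0.47), and in Bst2, which tethers virions (-0.15 ± 0.25), and Ifi27 was close to 0 (-0.06 ± 0.25). Ifi27l2b, an interferon-inducible gene outside the list, had counts of 2407, 3658, 2167 and 2630.2 in saline and 1353, 1772, 1749, 1771 and 1415 in LPS, with no overlap (-0.70 ± 0.15, adjusted p = 0.473). The differences of Rsad2, Helz2 and Ifit3 were -0.81, -0.58 and -1.51 with saline library 2. Members of the Ifit, Oas and Ifi27 families are close copies, and how the counting split reads between copies is not given in the sources used here.

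Leukocyte markers were also high in saline libraries 3 and 5. For 20 macrophage and monocyte markers the mean log2 value came to 8.05, 8.87, 7.7 and 9.02 in saline against 8.41, 8.25, 7.18, 7.42 and 8.29 in LPS milk. For 20 neutrophil markers it came to 8.17, 8.62, 7.99 and 8.96 against 8.72, 8.3, 7.35, 7.52 and 8.25. Saline libraries 3 and 5 were the highest in the first list and 2 of the highest 3 in the second, LPS libraries 3 and 4 were the lowest in both, and LPS library 5 ranked higher in them than in the interferon list. The summed normalised count of macrophage and monocyte markers was 6381 to 60571 in saline and 2508 to 18483 in LPS, and that of neutrophil markers 12696 to 42186 in saline and 6958 to 24599 in LPS. In LPS, 12 of 20 macrophage markers were lower (median -0.25) and 14 of 20 neutrophil markers (median -0.23), and 0 passed the test. With 1 library left out the macrophage median ranged from -0.47 to -0.07 and the neutrophil median from -0.31 to -0.09. Without saline libraries 3 and 5 the macrophage median was 0.06, with 9 of 20 lower, and with saline library 2 the neutrophil median was 0.03, with 10 of 20 lower. The part of these cells in the interferon difference was not tested. In bulk RNA fewer cells of a type and less RNA per cell cannot be told apart.

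**Figure D3:**
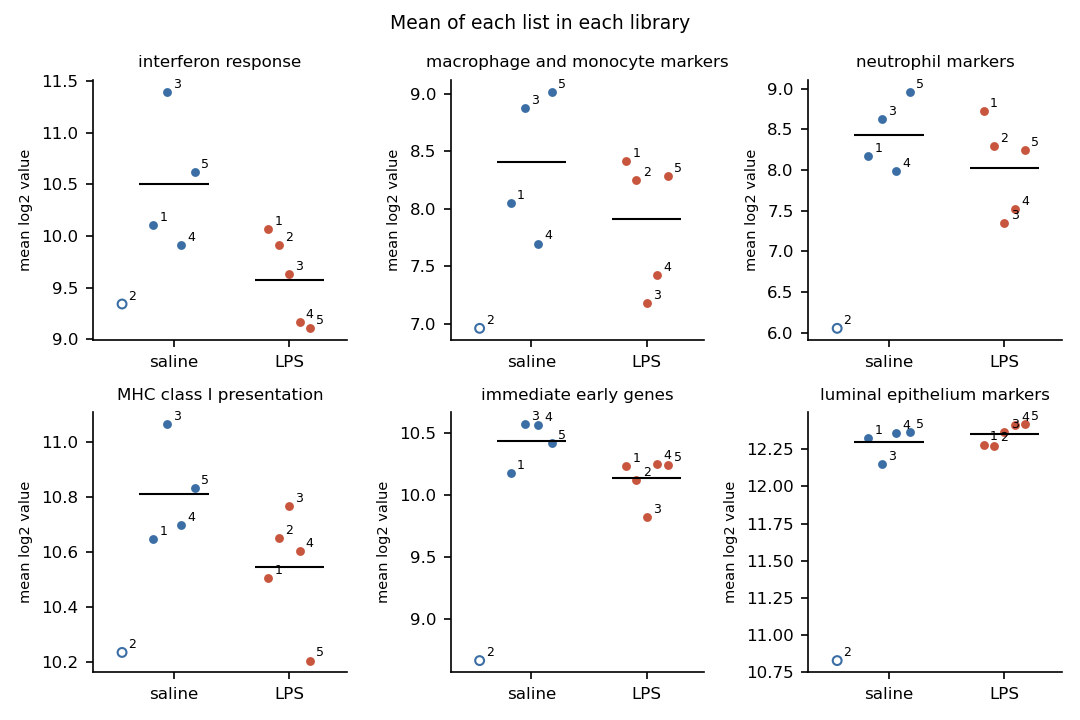
Mean log2 value of 6 gene lists in each library, with saline in blue, LPS in red, the library's number beside its point, a black line at the group mean, and the unused saline library 2 as an open circle. Saline libraries 3 and 5 are high in the interferon, macrophage and neutrophil panels, whereas the luminal epithelium markers of the 9 libraries lie between 12.15 and 12.42.

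Within these marker lists the members went different ways. Clec7a, the dendritic cell and macrophage receptor for beta-glucan, had counts of 907, 3180.1, 791 and 2045 in saline and 967, 918, 119, 278 and 335 in LPS (-1.65 ± 0.53, adjusted p = 0.565), and Clec4e, a receptor of activated myeloid cells, differed by -1.79 ± 0.66. The same low values in LPS libraries 3, 4 and 5 were seen in both. The macrophage genes Mpeg1, Fcgr1a and Lyz2 differed by -1.88 ± 0.61, -1.76 ± 0.70 and -1.26 ± 0.94, and the neutrophil receptors Csf3r and Cxcr2 by -1.41 ± 0.60 and -1.26 ± 0.55. Lyz2 had counts of 3350, 16936, 1429 and 40362 in saline and 8663, 6992, 782, 1587 and 3762 in LPS, with saline libraries 3 and 5 the highest. The abundant neutrophil proteins S100a8 and S100a9 did not follow, with 0.14 ± 0.34 and -0.03 ± 0.54; S100a9 had counts of 1442, 1986, 1979.8 and 8540.1 in saline and 4466, 1877, 3286, 968 and 4275 in LPS, with the highest value in saline library 5. Adgre1 (F4/80), a tissue macrophage marker, was higher in LPS but near 0 in saline: its counts were 1.3, 1.5, 0 and 0 in saline and 4.34, 3.33, 26.5, 16.7 and 21.2 in LPS, with no overlap (0.63 ± 0.16, adjusted p = 0.553). The complement genes of resident macrophages, C1qa, C1qb and C1qc, were higher by 0.66, 0.36 and 0.28. Marco was at 0 in all 9 libraries and Cd163 close to 0. The differences of Clec7a, Clec4e and S100a9 were -0.93, -1.02 and 0.97 with saline library 2. Adgre1 had 12.5 counts in saline library 2, above LPS libraries 1 and 2, and with it the difference was 0.50.

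Over 29 cytokines and chemokines 16 were lower and 13 higher, with a median of -0.07 (0.03 with saline library 2). Il1b, the interleukin that carries fever and neutrophil recruitment, had counts of 1263, 4419.6, 932 and 3524 in saline and 1469, 1641, 117, 305 and 351 in LPS (-1.82 ± 0.66, adjusted p = 0.565), and Ccl3, a monocyte chemokine, 1180.3, 3926, 530.1 and 2627 and 955, 1064, 112, 184 and 243 (-1.91 ± 0.64). In both, saline libraries 3 and 5 were the highest and LPS libraries 3, 4 and 5 the lowest, and the remaining libraries overlapped. Acod1, which makes the antimicrobial metabolite itaconate in activated macrophages, had counts of 453, 984, 427 and 618 and 353, 273, 37.1, 75.8 and 112, with no overlap (-1.64 ± 0.40, adjusted p = 0.553). Nos2, the inducible nitric oxide synthase, had counts of 5652, 26238, 3902 and 7943 in saline and 6247, 4243, 243, 1043 and 871 in LPS (-2.41 ± 0.81). The differences of Il1b, Ccl3 and Acod1 were -0.93, -1.02 and -1.02 with saline library 2. Tissue cytokines of epithelial cells differed little: Il33 by 0.09 ± 0.25, Cxcl1 by 0.27 ± 0.26 and Il1rn by -0.14 ± 0.19, and Il6 was near 0 in both groups.

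Genes of the LPS receptor complex differed in both directions. Tlr4, the receptor itself, had counts of 1009.5, 797, 1262 and 679 in saline and 774, 846, 430.5, 1066 and 649 in LPS (-0.30 ± 0.23), Cd14 differed by 0.34 ± 0.31 and Ly96 by -0.36 ± 0.22, and the groups overlapped in all of them. The 30 genes of NF-kB and Toll-like receptor signalling had a median of -0.14, with 22 lower and 8 higher. The most negative was Tlr1, at -1.01 ± 0.39. At a limma unadjusted p under 0.05, 6 were lower (4.58% of all genes) and 2 higher (3.48%). In the fit with saline library 2, 2 were lower at that p (148 of all 13807 genes tested). Without saline libraries 3 and 5, 0 were (373 of all 13680). The NF-kB inhibitors, which NF-kB itself induces, were on the low side: Nfkbia by -0.58 ± 0.24 and Nfkbie by -0.76 ± 0.24 (adjusted p = 0.565). The adaptor Myd88 differed by -0.34 ± 0.12. Tlr3, the endosomal receptor for double-stranded RNA, went the other way, with counts of 407, 319.6, 271 and 269.6 in saline and 530.2, 354, 435, 443 and 624 in LPS (0.48 ± 0.17, adjusted p = 0.565). The differences of Tlr4 and Nfkbie were 0.01 and -0.51 with saline library 2.

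Genes that present peptides on MHC class I were lower in part. Tap1, a subunit of the peptide transporter of the endoplasmic reticulum, had counts of 3235, 4768, 3889.5 and 3906 in saline and 2868, 2642, 2839, 3116 and 2497 in LPS, and Tapbp (tapasin), which holds class I molecules to that transporter, 3181, 4839, 3351 and 3865 and 2533, 3023, 2415, 2675 and 2219. In neither did the groups overlap, and the LPS libraries were close together (-0.48 ± 0.11 and -0.54 ± 0.13, adjusted p = 0.553 and 0.553). RT1-S3, a class Ib gene, was the third of the 18 members without overlap (1.2% of all genes, in this direction). Its difference was -0.84 ± 0.23, and its counts were 2484, 4968, 2853 and 2525 and 1988, 1641, 1963, 1954 and 1077. B2m, the light chain of every class I molecule, differed by -0.04 ± 0.13 and the constitutive proteasome by a median of 0.02. Over the list 16 of 18 were lower, with a median of -0.14 (-0.03 with saline library 2, where Tap1, Tapbp and B2m differed by -0.07, -0.27 and 0.04). The RT1 genes are a multigene family with near-identical copies, so their split of reads is uncertain. The largest positive difference of the whole comparison was in this family: RT1-CE7 had counts of 0, 0, 0 and 1421 in saline and 966, 622, 929.7, 32 and 1316 in LPS, and RT1-CE11 428, 725, 637 and 0 and 0, 0, 0, 415 and 5.88. Each was high in some libraries and at or near 0 in others of the same group. Fam111a, with the largest negative difference (-3.37 ± 1.28), had the same form: 19186, 594, 15713 and 14432 in saline and 14360.1, 474, 333, 150.3 and 160.4 in LPS.

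In MGC105649, Atf3 and Gadd45b every LPS library lay below every saline library, and saline libraries 3 and 5 were not the highest pair. MGC105649, for which the files give no further name, had counts of 2699.7, 2566, 2651 and 2797 in saline and 1984, 1349, 1442, 1676 and 1427 in LPS. The saline libraries lay within a narrow range and every LPS library lay below it (-0.75 ± 0.11, adjusted p = 0.208; log2 fold change -0.75 at an adjusted p of 0.00130 in the authors' deposited table). Atf3, a transcription factor induced by many stresses, had counts of 5423, 4701, 5787 and 4011 in saline and 3195, 2963, 2564, 3744 and 2540.2 in LPS (-0.72 ± 0.14, adjusted p = 0.403). Gadd45b, a stress sensor that NF-kB induces, had 6145, 5452, 4513 and 4960.5 and 3461, 2670.3, 2938, 4249 and 3120.3 (-0.67 ± 0.14, adjusted p = 0.460). LPS library 4 was the highest LPS library in both. The means of the 2 groups were 4981 ± 788 and 3001 ± 499 for Atf3 and 5268 ± 699.5 and 3288 ± 609.6 for Gadd45b (SD, n = 4 and 5). All 3 were far lower in saline library 2, at 55.7, 261 and 185, and with it their differences were 0.14, 0.06 and 0.19.

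Cflar (c-FLIP), which blocks caspase 8 at death receptors, had counts of 4437, 5429.7, 4345 and 4307 in saline and 3051, 3055, 2754, 3582 and 2355 in LPS. No LPS library reached a saline one, and the difference of -0.64 ± 0.12 (adjusted p = 0.403) stayed negative with saline library 2, at -0.45. Birc3 (cIAP2), a ubiquitin ligase of the same pathway, had 846, 2299, 829 and 1157 and 679.9, 618, 505, 454 and 507 (-1.0 ± 0.26, adjusted p = 0.553), with saline library 3 far above the others. The difference for Birc3 was -0.55 without saline libraries 3 and 5 and that for Cflar -0.57. In the authors' deposited table the adjusted p was 0.0321 for Cflar and 0.0278 for Birc3. Further genes of small p without overlap were Ccnl1, a cyclin of splicing control (-0.48 ± 0.10), Oser1, an oxidative stress responsive gene (-0.46 ± 0.10), and Fnbp4, a WW domain protein (-0.69 ± 0.14). With saline library 2 their differences were 0.00, -0.12 and -0.26. Abcg4, a sterol transporter, had counts of 264, 239, 164 and 151 in saline and 98.6, 78.8, 86.2, 109.8 and 60.4 in LPS, again with no overlap (-0.80 ± 0.18), and 1.13 in saline library 2, with which the difference was -0.31. Fnbp4 differed by -0.40 without saline libraries 3 and 5.

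**Figure D4:**
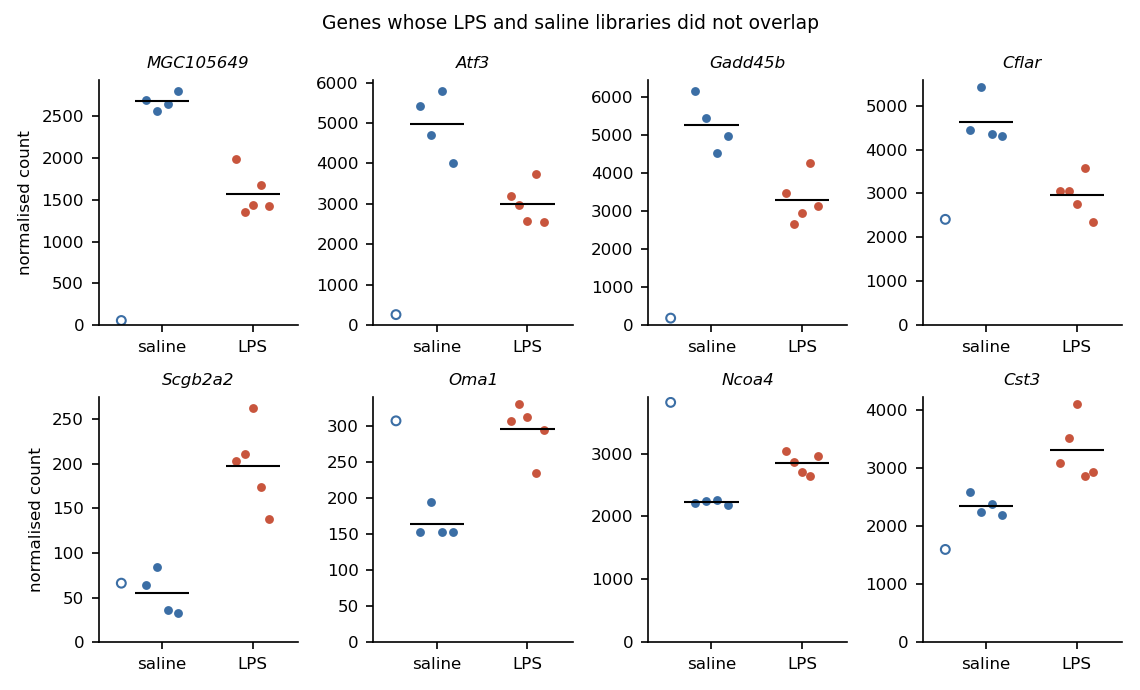
Normalised counts of 8 genes in each library, with saline in blue, LPS in red and a black line at the group mean. In the upper row every LPS point lies below every saline point and in the lower row above, whereas the unused saline library 2 (open circle) lies far below both groups for MGC105649, Atf3 and Gadd45b.

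Immediate early genes, which cells switch on within minutes of a stimulus, were mostly lower: 23 of 26, with a median of -0.35 and 10 at an unadjusted p under 0.05 (4.58% over all genes). The median was 0.09 with saline library 2, where 2 of 26 were lower at an unadjusted p under 0.05 (148 of all 13807 genes tested). In that fit 16 of 26 had a positive difference. The list's mean log2 value came to 10.17, 10.57, 10.56 and 10.42 in saline against 10.23, 10.12, 9.82, 10.25 and 10.24 in LPS milk, so the groups overlapped only through saline library 1. Zfp36 (tristetraprolin), which destabilises cytokine mRNA, had counts of 4219.5, 7999, 5684 and 5939 in saline and 4329, 3502, 2329.5, 4114 and 2622 in LPS (-0.81 ± 0.21, adjusted p = 0.553), and Junb, a subunit of the factor AP-1, 3889, 6199, 5018 and 5240.1 and 3666, 3350.4, 2934, 4017 and 3669.8 (-0.51 ± 0.14). For each, 1 LPS library lay just inside the saline range and the other 4 below it. The fastest genes of the class differed less, Fos by -0.14 ± 0.39 and Egr1 by -0.19 ± 0.26. The differences of Junb, Fos and Egr1 were -0.21, 0.02 and 0.25 with saline library 2.

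The unfolded protein response, by which secretory cells match folding capacity to load, was also on the low side, with 24 of 28 genes lower and a median of -0.21. Ppp1r15a (GADD34), which restarts translation after stress, had counts of 7441, 7838, 9104 and 6227 in saline and 5238, 4760.2, 4035, 7589 and 5129 in LPS (-0.53 ± 0.17, adjusted p = 0.565); LPS library 4 lay within the saline range and the others below it. Sel1l, of the machinery that removes misfolded proteins, differed by -0.37 ± 0.12 and the chaperone Hspa5 (BiP) by -0.35 ± 0.22. With saline library 2 the median of the list was 0.07, and Ppp1r15a, Sel1l and Hspa5 differed by 0.15, 0.01 and 0.12. The same change of sign with that library was seen for p53 targets (-0.18 and 0.09), heat shock genes (-0.16 and 0.10) and tight junctions (-0.17 and 0.15). Among 25 cholesterol synthesis genes (median -0.10), 5 had an unadjusted p under 0.05 and all 5 were lower (4.58% over all genes), while 9 members were higher. With saline library 2 that count was 1 (148 of all 13807 genes tested), and without saline libraries 3 and 5 it was 2 (373 of 13680). Msmo1, a sterol oxidase, had counts of 3552, 4049.9, 1848 and 1607 in saline and 1584, 1268, 1342, 2017 and 1597 in LPS (-0.70 ± 0.26), in which saline libraries 1 and 3 were high, and Lss, lanosterol synthase, differed by -0.41 ± 0.13 (adjusted p = 0.565).

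Among the genes higher in LPS milk, Scgb2a2 (mammaglobin), a secretoglobin of glandular epithelium, had counts of 64.4, 84.7, 36.5 and 33.2 in saline and 203, 211, 263, 174 and 137 in LPS. Every LPS library lay above every saline one, with means of 54.7 ± 24.4 in saline and 197 ± 46.4 in LPS (SD, n = 4 and 5; 1.14 ± 0.20, adjusted p = 0.341). In the authors' deposited table its log2 fold change was 1.87 at the smallest adjusted p of all, 3.36e-04. Saline library 2, at 66.2, lay within the saline range for this gene. Oprpn, a secreted proline-rich protein, had counts of 172, 192, 141 and 131 in saline and 241, 1080.4, 693, 460.4 and 302 in LPS (1.27 ± 0.33, adjusted p = 0.553), with no overlap but a wide LPS range. Saline library 2, at 828, lay above every LPS library but LPS library 2, and with it the difference was 0.88. Oma1, a protease of the mitochondrial inner membrane, had 154, 195, 154 and 153 and 307, 331, 312, 235 and 295 (0.63 ± 0.14). For Oma1 saline libraries 1, 4 and 5 were nearly equal and every LPS library lay above the saline range, though saline library 2, at 307, lay among the LPS values.

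Cst3 (cystatin C), a secreted protease inhibitor, had counts of 2588, 2252, 2388 and 2201 in saline and 3098, 3519.7, 4098, 2873 and 2940.3 in LPS (0.46 ± 0.11, adjusted p = 0.553). Ncoa4, the receptor that delivers ferritin to lysosomes, had 2221, 2253, 2257 and 2184 and 3048, 2861, 2705, 2643 and 2965 (0.34 ± 0.08). Neither overlapped, and the 4 saline libraries lay close together for Ncoa4. Saline library 2 had 3813 counts of Ncoa4, above every LPS library, and with it the difference was 0.19. Pon2, an antioxidant paraoxonase (0.60 ± 0.15), and Gdpd1, a phosphodiesterase of lipids (0.68 ± 0.16), were also without overlap, with 0.87 and 0.99 when saline library 2 was added. Lao1, an L-amino acid oxidase that milk carries as an antibacterial enzyme in mice, had counts of 1422, 1084, 343 and 458 in saline and 2743, 1526, 2950.0, 2125 and 1402 in LPS (1.43 ± 0.36, adjusted p = 0.553); LPS library 5 lay just under the highest saline library. Slc21a4, an organic anion transporter, and Bcam, an adhesion molecule, were higher by 1.36 ± 0.38 and 0.83 ± 0.20, both with overlap. Saline library 2 had 918 counts of Slc21a4, above every LPS library, and with it the difference was 0.73.

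A further set was listed at 0 in all 4 saline libraries and was above 0 in all 5 LPS libraries, at low counts. It held 13 genes, and 0 genes showed the reverse. Icos, a costimulatory receptor of T cells, was at 0 in the 4 saline libraries and in saline library 2 and had counts of 5.56, 13.8, 6.41, 16.7 and 15.8 in LPS. P4ha3, a collagen hydroxylase subunit, had 7.46, 5.57, 9.29, 4.44 and 6.63 and Elane, neutrophil elastase, 9.33, 7.25, 2.12, 3.61 and 7.89. The adjusted p was 0.208, 0.208 and 0.403 in turn. Spef2, a sperm flagellum gene, and RGD1307461 were each above 0 in 1 of the 4 saline libraries, and their LPS counts were 8.06, 25.5, 14.4, 17.5 and 39.9 and 11.1, 7.76, 25.7, 27.3 and 31.1. RGD1307461 had 9.11 counts in saline library 2, above LPS library 2. The 2 shallowest libraries, saline 1 and saline 5, are in the saline group, and the part of depth in these low counts was not tested. Other lymphocyte markers were low in both groups: Cd3d of T cells and Ms4a1 and Mzb1 of B and plasma cells were at 0, and Cd4 had counts of 10.4, 35, 25.4 and 10 in saline and 42.1, 53.7, 42, 26.5 and 152 in LPS.

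Acute phase and antimicrobial genes were mostly higher, with 18 of 25 higher and a median of 0.19 (0.26 with saline library 2). Cp (ceruloplasmin), the copper carrier of plasma and milk, had counts of 1681, 606, 1435 and 692 in saline and 2159, 1326, 3375, 2224 and 1537 in LPS (0.94 ± 0.32, adjusted p = 0.565). Complement factor B, Cfb, had 1250.2, 1173, 1282 and 1101 and 2962, 2029, 3071, 913 and 2226 (0.75 ± 0.28): LPS library 4 was the lowest of all and the other 4 LPS libraries lay above every saline one. C3, the central complement protein, differed by 0.70 ± 0.33 and Tf, the iron carrier transferrin, by 0.97 ± 0.44. Orm1, an acute phase glycoprotein, was nearly absent from saline milk and spread widely in LPS milk, with counts of 0, 4.41, 0 and 0 and 16.8, 4.47, 178, 1.82 and 153. Lcn2, which withholds iron from bacteria, ranged even more widely, with 59733, 1676, 101393, 20821 and 33268 in LPS and 20657, 31364, 18826 and 38483 in saline (-0.15 ± 0.93). The differences of Cfb, Tf and Lcn2 were 0.47, 0.63 and 0.09 with saline library 2.

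The main milk protein genes did not separate the groups. Csn2 (beta-casein) differed by 0.08 ± 1.07, Csn3 (kappa-casein, which stabilises the micelle) by 0.17 ± 0.43 and Wap (whey acidic protein) by 0.01 ± 0.50. These SEs draw on the model's mean-variance trend and exceed the spread of the libraries for Csn2, whose log2 values ran from 20.68 to 21.57. On approximate reads voom gave 0.07 ± 0.22 for Csn2 and 0.15 ± 0.22 for Csn3. Lalba (alpha-lactalbumin, the regulatory subunit of lactose synthase) had counts of 171815, 100084, 62119 and 76354 in saline and 202550.2, 202958, 167615, 72457 and 74662 in LPS (0.45 ± 0.42). In both groups the libraries fell wide apart: LPS libraries 1, 2 and 3 and saline library 1 were high. 15 of 18 milk protein genes were higher, with a median of 0.20, and with saline library 2 the median was -0.19. Pthlh, the hormone that moves calcium from bone to milk, had the smallest p of the list, with counts of 85.6, 56.8, 50.2 and 6.55 in saline and 161, 144, 266, 71.5 and 91.9 in LPS (0.92 ± 0.31, adjusted p = 0.565). The differences of Csn2, Csn3, Wap, Lalba and Pthlh were -0.39, -0.32, -0.39, -0.16 and 0.50 with saline library 2.

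Genes of fat secretion showed the same dependence on saline library 2. The 13 globule membrane and droplet genes had a median of 0.31, and -0.30 with it. Xdh, the oxidoreductase that anchors the droplet to the membrane, differed by 0.13 ± 0.34, Plin2, the droplet coat protein, by -0.03 ± 0.22, and Btn1a1, Xdh's partner in the membrane, by 0.66 ± 0.64. Fasn, fatty acid synthase, had counts of 80558, 123207, 19374 and 31254 in saline and 70183, 113499.6, 112169.6, 27749.8 and 43721 in LPS (0.37 ± 0.57), and 1157879.5 in saline library 2. Saline libraries 4 and 5 and LPS libraries 4 and 5 were the low ones, so that the low and high values crossed the groups. Added to the saline group, library 2 gave differences of -0.39 and -0.54 for Xdh and Fasn. Fatty acid and triglyceride synthesis had a median of 0.17 (-0.29 with saline library 2) and lactose synthesis 0.10 (-0.16).

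Housekeeping lists differed by small amounts. Of 73 nuclear genes of oxidative phosphorylation 67 were higher, with a median of 0.08, and of 62 cytosolic ribosomal proteins 51, with a median of 0.07. Their library means were 13.48, 13.03, 13.07 and 13.16 in saline and 13.23, 13.23, 13.61, 13.09 and 13.06 in LPS for the ribosomal list, which overlap widely. With saline library 2 the medians were -0.15 and -0.09, and without saline libraries 3 and 5 that of the ribosomal list was -0.02. The cell cycle list had a median of -0.01, and its library means were 8.8, 10.22, 8.5 and 8.91 in saline and 9.21, 9.86, 9.38, 8.63 and 8.56 in LPS, with saline library 3 and LPS library 2 above the rest. With saline library 2 its median was 0.18, and without saline libraries 3 and 5 it was 0.50. Of 26 secretory transport genes 19 were lower (median -0.08), and of 34 constitutive proteasome genes 21 were higher (median 0.02). Luminal epithelium markers had a median of 0.04 and myoepithelium markers 0.05.

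**Figure D5:**
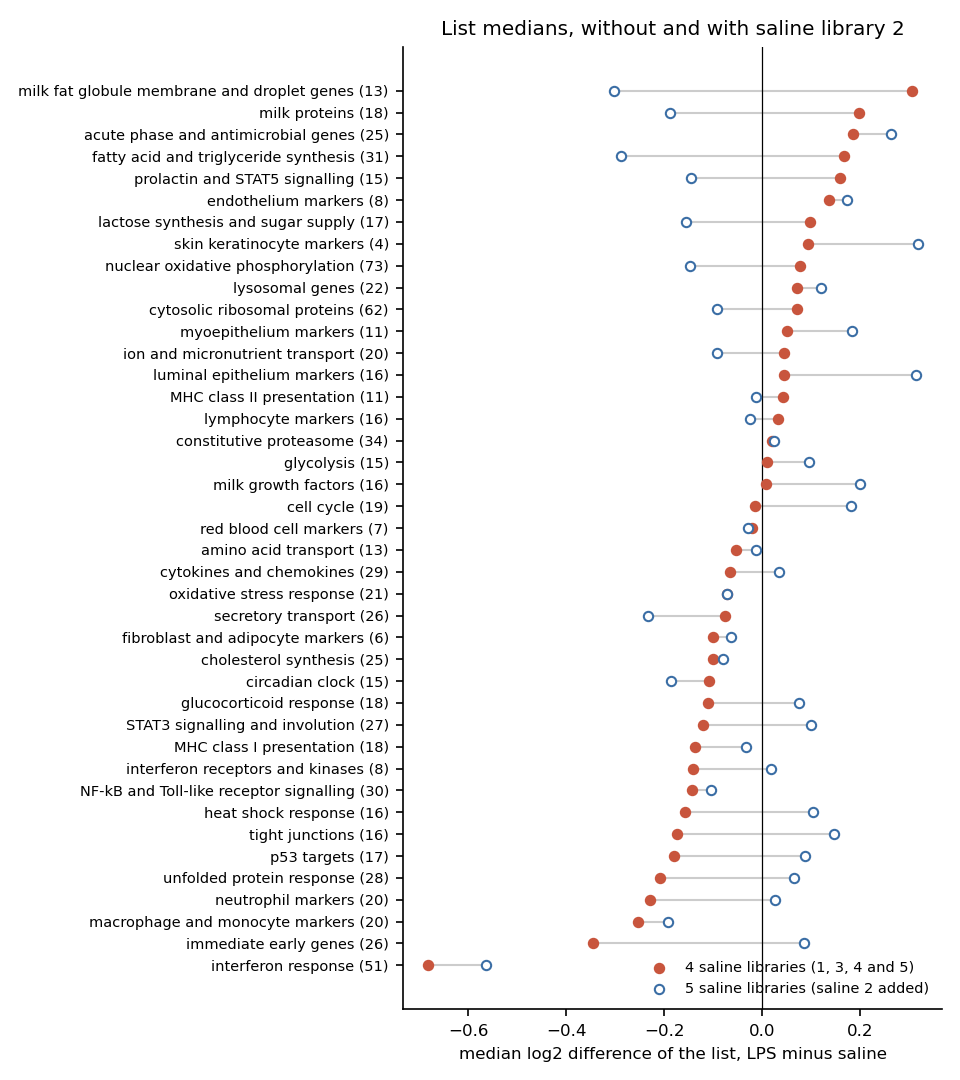
Median log2 difference of each of 41 gene lists (number of members tested in brackets), with saline libraries 1, 3, 4 and 5 (filled red) and with saline library 2 added (open blue). The interferon response stays the lowest in both, while immediate early genes go from -0.35 to 0.09 and milk fat globule genes from 0.31 to -0.30.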

How the data were processed

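RNA from the fat layer of milk was sequenced from stranded mRNA libraries, per the labels' protocols. The authors deposited log2-scale expression values, labelled rlog, for 16748 genes in 20 columns, with a single lowest value of 5.46 that stands for 0 counts. The values themselves have the form of a variance-stabilizing transformation, which is inferred here and differs from the label. Per the submitters' processing notes they used DESeq2 and the rat assembly rn6; which aligner, counter, strand setting and annotation they used is not given in the sources used here. A second deposited table, of the authors' P11 comparison, holds, per the file headers, a base mean (another unit: mean normalised count), log2 fold changes with their standard errors, and p-values raw and adjusted for genes with an unadjusted p under 0.05.

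That inferred variance-stabilizing form was inverted to normalised counts, so all counts given here rest on it. The smallest step between low counts gave the value of 1 read in each library: 96.3% to 99.4% of low values lay within 0.15 of a whole multiple, where 30.0% would by chance. Depth is approximate and no exact reads were recovered, so no count model was run on the deposited values (voom on the approximate reads is an alternative). limma 3.58.1 in R 4.3.3 was fitted to the deposited log2 values of 9 libraries with a mean-variance trend, two-sided, Benjamini-Hochberg adjusted over 13796 genes, leaving out 2952 at the lowest value in all 9. Differences are LPS minus saline with the model's SE, and on this scale they understate changes of low genes. A check on simulated data, drawn around the real gene means and spreads, was run after the fits, and its outcome is not given here. P-values measure the spread between dams, moderated by the trend over all genes.

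The comparison, its members, the 41 gene lists and the tests were chosen with earlier results of these data known. Genes named were the 10 of smallest adjusted p among those called (none), the 8 of smallest p in each direction with a mean normalised count of at least 100, the 2 of smallest p in each list, the 8 of smallest adjusted p in each direction of the authors' deposited table, and 23 chosen for their roles; not all are printed, and 1 interferon list member, counted with its list, is not reported here. The remaining genes were chosen after their values were seen, among them Acod1, B2m, C3, Cxcl10, Dhx58, Egr1, Fam111a, Fos, Hspa5, Ifih1, Ifit1, Ifit3, Nos2, Oasl, P4ha3, RT1-CE7, RT1-CE11, RT1-S3, Rsad2, Tlr3 and Usp18. Of the IDs, 16619 matched the RefSeq gene table, and 25 symbols turned into dates were restored by ID. Alternatives were saline library 2 added, each library left out, other filters, scalings, pseudocounts and variance models, and spread shared with the day before; voom and the removal of saline libraries 3 and 5 were added after seeing the data.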

Additional observations from a re-analysis of the deposited data

Results flagged for a closer look

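Of 262 sets of 4 saline or 5 LPS values examined, 17 held a library far from the others of its group, by the gap to its nearest neighbour (Dixon's test at 95%); chance gives about 1 in 20. Saline library 3 was the far one in 8 of them. It stood above the other saline libraries for Ifih1 (5066 normalised counts), Mx1 (1210.4), Rsad2 (27158), RT1-S3 (4968), Cflar (5429.7) and Oma1 (195), and alone above 0 for Orm1 (4.41) and Spef2 (3.01).

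Saline library 5 was far above the other saline libraries for S100a9 (8540.1 normalised counts), saline library 4 for Bcam (69.1), and saline library 1 was alone above 0 for RGD1307461 (1.3). LPS library 1 was far above the other LPS libraries for Fos (1091), Myd88 (1373) and the number of detected genes (12985), and LPS library 5 for Cd4 (152). LPS library 2 was far below the others for Cd14 (2171) and LPS library 3 for Egr1 (266). None was left out on this account.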

How the results depend on the processing

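Of 23 other fits, 21 called 0 genes, with 852 to 1365 genes at an unadjusted p under 0.05 when 1 library was left out and 559 with saline library 2. Without a filter 1 gene was called higher, P4ha3 (limma adjusted p = 0.00943). With the spread shared with the P10 libraries 6 were called higher, Elane, P4ha3 and RGD1307461 among them, and 1 lower; the cause was not tested. Genes without overlap numbered 54 higher and 37 lower with saline library 2, 710 and 692 without saline libraries 3 and 5, and 188 to 362 and 205 to 438 with 1 library left out. Removing libraries can only keep or raise such counts, and the cause of their unequal rise was not tested.

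Adding saline library 2 turned the difference in the share of the 10 most abundant genes to -2.69 percentage points (exact permutation test, adjusted p = 0.833) and the median of immediate early genes to 0.0870; it moved 14 of 41 list medians by more than the spread between libraries and turned the sign of 19 of 88 named genes. With 1 library left out the medians ranged -0.85 to -0.40 for the interferon response, -0.41 to -0.25 for immediate early genes, -0.24 to -0.11 for MHC class I and 0.01 to 0.40 for milk proteins. The median of all genes lay between -0.00396 and 0.0340 in every fit. No paired analysis was possible because saline and LPS milk came from different dams and the columns carry no dam number. Counts under about 10 rest on a few reads.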
